A study of Prunus persica with 20 samples.

Results

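In young peach fruit, 90 of the 26811 genes in the count table set the peach accession TN7 apart from the other 3 accessions sequenced with it: 37 were high in TN7 and 53 were low. They were chosen by their measured levels in CPM, the count divided by the library's total and multiplied by 1000000, averaged over the libraries of an accession. A gene high in TN7 had a TN7 mean of at least 1 CPM and at least 2.5 times the largest mean of the others. Its TN11 mean also had to lie below 2.5 times the larger of the nectarine means. A gene low in TN7 had at least 1 CPM in each of MN, Sunraycer and TN11, and a TN7 mean at most 1/2.5 of the smallest of these. The difference between TN7 and the others is therefore how the genes were found, and it is given here as a description; counts of calls from a fit of all genes are printed for it further on, and nothing is read from them.

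RNA was sequenced from fruit at fruit set, the stage at which the ovary begins to grow into a fruit. TN7 is a peach of stated genotype Gg at the G locus, and TN11 is a peach of genotype GG. Sunraycer is a commercial nectarine of genotype gg, and MN, the Maravilha Nectarine Mutant, is a nectarine that arose from a peach and has the stated genotype Gg. TN7 had 4 libraries in the count table and each of the others 5, and each group is 1 accession. MN shares the stated genotype of TN7, and TN11 shares its kind of fruit. What is TN7's own is the combination of the 2, its other inherited differences and any difference in growth, sampling or handling. These cannot be told apart.

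Peaches and nectarines are the same species and in general differ at the G locus. A dominant allele there gives a fruit covered in trichomes, the single-celled hairs of the fuzz, and the recessive homozygote gives a smooth skin. MN, a nectarine with the stated genotype Gg, departs from this, and the reason was not tested. MYB transcription factors are known as regulators of plant hairs, and fruit hairs form early, on the epidermis of the young ovary. Cultivars of a fruit tree are propagated as clones, so each carries its own fixed set of alleles at many loci besides the one it is grown for. The files pair no gene ID with a name or function, and 0 of the IDs matched the RefSeq gene table, so the members are given by ID and no role is assigned to them. The identity of the tissue could not be checked with marker genes for the same reason.

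Library totals lay between 14890206 and 24474843 counts. TN7 5 and Sunraycer 1 were the libraries least like the others of their accession. Over 17639 genes whose accession means averaged at least 1 CPM, the mean correlation of log2(CPM + 1) with the other libraries of its accession was 0.939 for TN7 5 and 0.961 to 0.965 for the other TN7 libraries. It was 0.913 for Sunraycer 1 and 0.945 to 0.962 for the other Sunraycer libraries. In MN it was 0.971 to 0.983 and in TN11 0.971 to 0.979, above every Sunraycer and TN7 library. The main direction of spread within accessions held 39.7% of the variance within them. On it TN7 5 scored 0.804, against −0.772 to 0.00574 in the other TN7 libraries. Sunraycer scored 0.369 to 2.58 and MN −1.62 to −0.269, so the nectarines did not overlap on this axis.

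**Figure D1:**
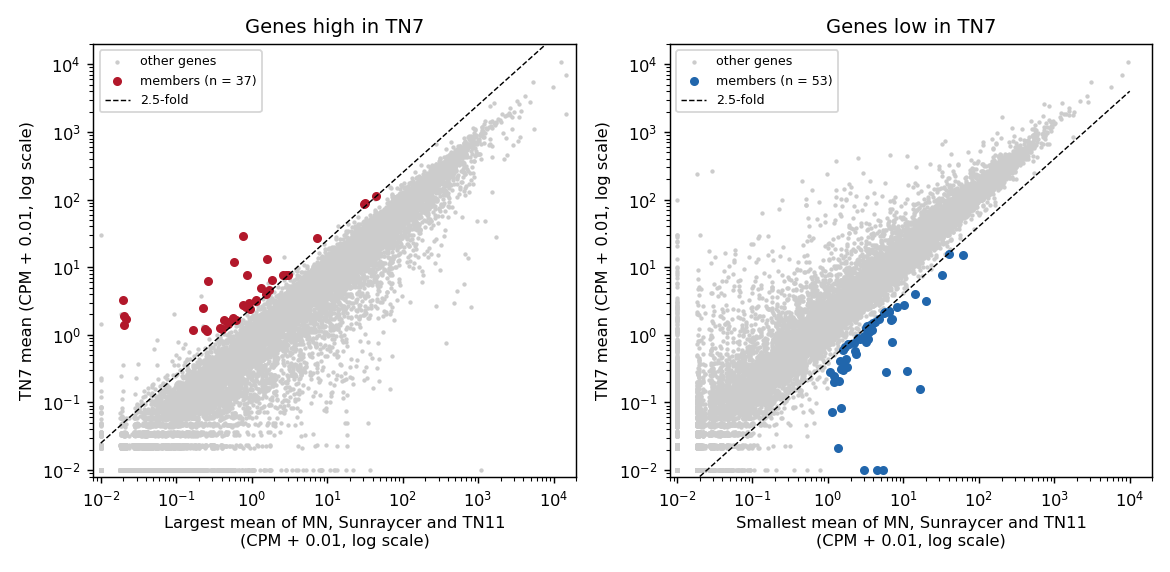
Mean level of each gene in TN7 (vertical axis) against the largest mean of the other 3 accessions (left) and the smallest (right), in CPM plus 0.01 on log axes. Each point is a gene, the coloured points are the 37 genes high and the 53 genes low in TN7, and the dashed line marks a 2.5-fold difference; grey points beyond the line did not meet the CPM minimum or the TN11 condition.

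Members ranged from just past the limit of the rule to far beyond it. The fold of TN7 over the largest other mean had a median of 3.39 among the 37 high genes, and 12 of them were under 3-fold while 8 were at 10-fold or more. Among the 50 low genes with a count in TN7 the median fold below the smallest other mean was 3.76. Of all 53 low genes, 17 were under 3-fold, 9 were at 10-fold or more, and 3 of these 9 had no count in TN7. Levels were modest: the median TN7 mean of the high genes was 3.19 CPM, and the median of the smallest other mean of the low genes was 3.33 CPM.

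The genes nearest the limit show how little separates a member from its neighbours. Just inside on the high side were Prupe.8G120900.v2.1 at 2.54-fold and Prupe.6G147800.v2.1 at 2.56-fold, and just outside were Prupe.1G414800.v2.1 at 2.48-fold and Prupe.2G160700.v2.1 at 2.43-fold. On the low side Prupe.2G207600.v2.1 at 2.51-fold and Prupe.4G047800.v2.1 at 2.53-fold were inside. Prupe.7G014300.v2.1 at 2.46-fold and Prupe.5G117000.v2.1 at 2.44-fold were outside.

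**Figure D2:**
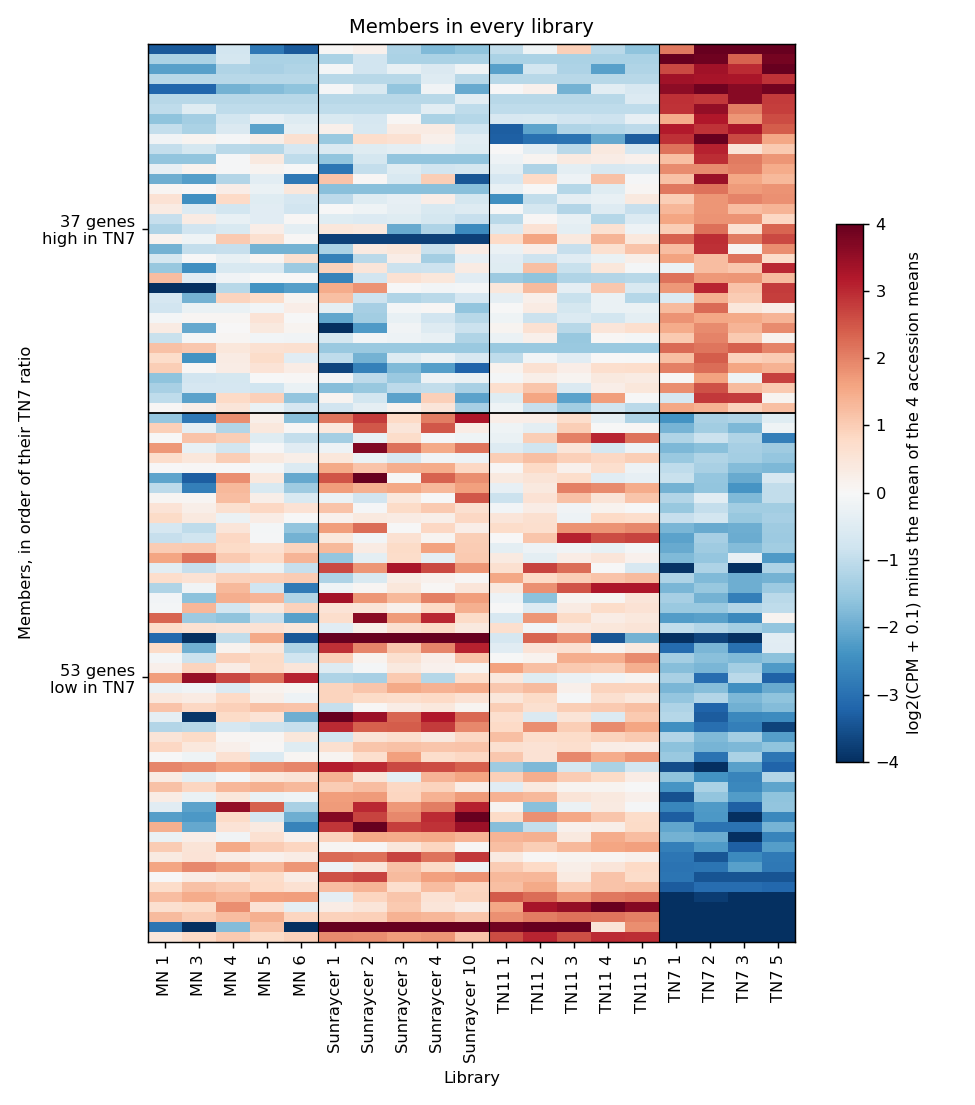
All 90 members (rows, in order of their TN7 ratio) in each of the 19 libraries (columns), as log2(CPM + 0.1) minus the mean of the 4 accession means, with red above and blue below that mean. The TN7 columns hold the colour set by the rule; rows of low genes that are dark red in Sunraycer or TN11 are members in which the other accessions also differ among themselves.

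The separation of TN7 from the others was complete in many members and partial in the rest. In 26 of the 37 high genes every TN7 library lay above every one of the other 15 libraries, where 0.819% of the genes with at least 1 CPM in an accession did so. In 34 of the 53 low genes every TN7 library lay below all others, where 0.472% of those genes did so. These shares follow from the choice of the genes. The remaining 11 high and 19 low members overlapped with at least 1 library of another accession, so their means differ while their libraries do not separate.

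Among the high genes, Prupe.1G184200.v2.1 had the most even level in TN7. Its CPM was 10.6, 13.3, 11.0 and 12.9 in TN7 1, 2, 3 and 5, and at most 0.909 in any other library. The TN7 mean of 11.9 ± 1.34 CPM (SD, n = 4) was 20.7 times the TN11 mean of 0.577 ± 0.299 (SD, n = 5), the largest of the others. All 4 TN7 libraries were high and no library of another accession came near them. Prupe.1G182800.v2.1 was close to an on and off difference: it had 4.96, 3.45, 1.14 and 3.32 CPM in the TN7 libraries, no count in TN11, and a single count over each nectarine. The ratio of TN7 to MN was 343 with a 95% counting interval of 61.0 to 13581, and TN7 was at least 117-fold above TN11 (the floor for a group without counts is 3 counts over all its libraries; intervals and floors cover counting error only).

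Other high genes owed much of their mean to 1 library. Prupe.1G231300.v2.1, with the largest ratio in the order used to name genes, had 4.33, 21.1, 18.6 and 72.6 CPM in TN7 1, 2, 3 and 5, against 1.88 CPM or less in every other library. Prupe.8G256700.v2.1 had 2.72, 4.53, 3.51 and 14.5 CPM in the same order, against 0.326 CPM or less elsewhere. In both genes TN7 5 was the high library and all TN7 libraries still lay above the rest. In 9 of the 37 high genes a single TN7 library held over 50% of the summed TN7 CPM, TN7 2 in 4 of them and TN7 5 in 5.

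The high genes with the most counts in TN7 were Prupe.6G019600.v2.1 and Prupe.6G019500.v2.1. The former had 128, 146, 94.3 and 82.4 CPM in the TN7 libraries. It had 32.1 to 61.6 CPM in MN, 34.8 to 50.5 in TN11 and 2.33 to 9.07 in Sunraycer. TN7 was the highest accession, MN and TN11 lay together at 43.3 ± 11.3 and 43.9 ± 7.28 CPM (SD, n = 5 each), and Sunraycer was lowest at 5.21 ± 2.71 CPM (SD, n = 5). Prupe.6G019500.v2.1 had 119, 87.0, 89.7 and 63.0 CPM in TN7, 19.2 to 62.2 in MN, 4.07 to 40.0 in Sunraycer and 8.49 to 12.2 in TN11. Here TN11 was the lowest accession, and the lowest TN7 library lay just above the highest MN library. Prupe.6G069800.v2.1 was more even, with 28.2, 28.1, 30.3 and 21.0 CPM in TN7 and at most 8.23 CPM in any other library. Prupe.1G498800.v2.1 had 55.9, 137, 37.0 and 116 CPM in TN7. It had 15.5 to 58.0 CPM in Sunraycer and 11.0 to 40.4 in TN11, so TN7 overlapped with both.

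Among the low genes, 3 had no count in any TN7 library. Prupe.3G289600.v2.1 had 3.55 to 5.35 CPM in MN, 3.74 to 5.24 in Sunraycer and 7.09 to 9.06 in TN11. It was thus present in all 15 libraries of the other accessions and at least 119-fold below the level of Sunraycer, the nearest of them. Prupe.6G139800.v2.1 had 1.54 to 7.52 CPM in MN, 2.44 to 4.23 in Sunraycer and 6.03 to 32.7 in TN11, and was at least 79.2-fold lower in TN7 than in Sunraycer. Prupe.1G205600.v2.1 varied widely outside TN7, with 571 to 2321 CPM in Sunraycer, 14.0 to 200.1 in TN11 and 0 to 22.0 in MN. As MN 3 also lacked a count, TN7 was not separate from MN in every library for this gene.

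Prupe.4G285500.v2.1 and Prupe.1G531600.v2.1 were low but measurable in TN7. The former had 0.0893, 0.148, 0.198 and 0.16 CPM in TN7 1, 2, 3 and 5, against 13.2 to 19.7 in MN, 21.0 to 35.6 in Sunraycer and 56.9 to 79.0 in TN11. Its TN7 mean of 0.149 ± 0.0451 CPM (SD, n = 4) was 113-fold below the MN mean of 16.8 ± 2.42 (SD, n = 5). The 4 accessions formed 4 separate ranges, with TN7 lowest and TN11 highest. In Prupe.1G531600.v2.1 the other accessions lay together instead, at 5.91 ± 1.03 CPM in MN, 6.83 ± 1.32 in Sunraycer and 7.37 ± 1.10 in TN11 (SD, n = 5 each). TN7, at 0.271 ± 0.0344 CPM (SD, n = 4), was 21.8-fold below MN, and its highest library lay below all 15 others.

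Ranked by the smallest mean of the other accessions, the leading low genes were Prupe.1G182900.v2.1, Prupe.7G205200.v2.1 and Prupe.2G027200.v2.1. Prupe.1G182900.v2.1 had 20.2, 13.5, 17.9 and 9.84 CPM in TN7 1, 2, 3 and 5 and 27.0 to 105 CPM in the other libraries. TN7, at 15.4 ± 4.61 CPM (SD, n = 4), was 3.97-fold below the MN mean of 61.0 ± 12.9 (SD, n = 5), with no overlap. Prupe.7G205200.v2.1 had 11.2, 20.0, 12.6 and 18.0 CPM in TN7. Its MN libraries ran from 13.3 to 88.5 CPM and its TN11 libraries from 50.4 to 417, so TN7 overlapped with MN. Prupe.2G027200.v2.1 had 6.03, 12.9, 5.10 and 7.11 CPM in TN7 and 22.7 to 83.3 CPM in the other libraries, without overlap.

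**Figure D3:**
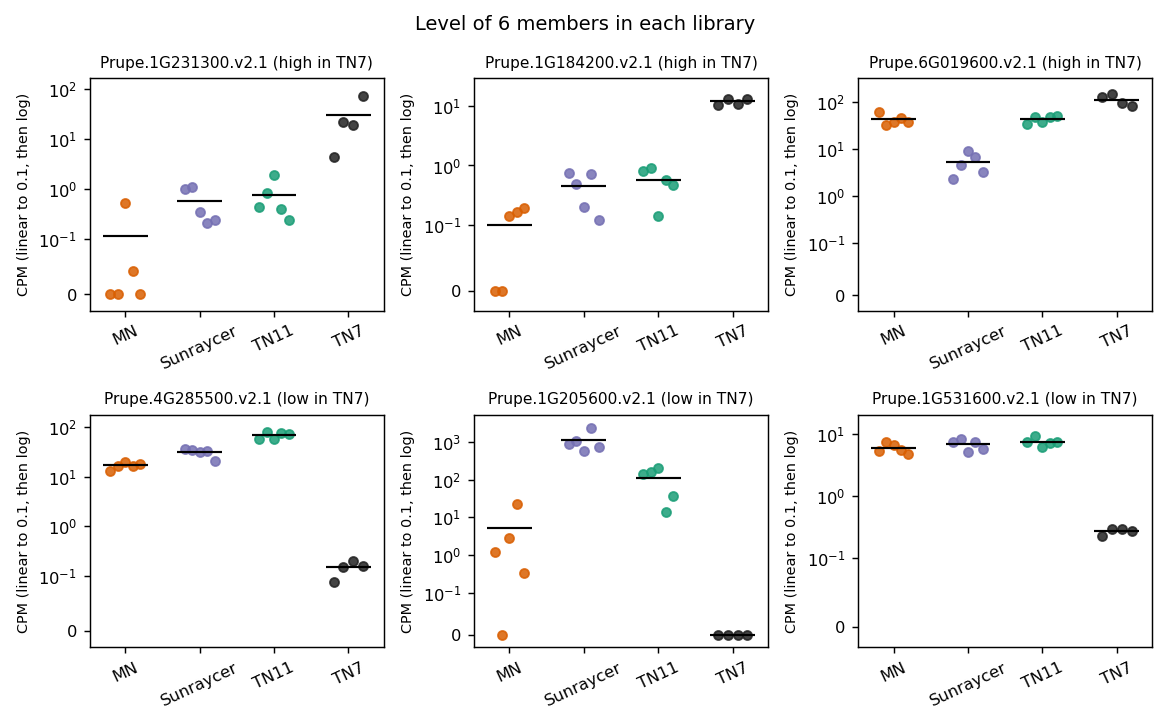
CPM of 6 members in each library (points) with the accession mean (bar), on an axis that is linear up to 0.1 CPM and logarithmic above it. Prupe.1G184200.v2.1 and Prupe.1G531600.v2.1 differ mainly in TN7, while Prupe.6G019600.v2.1 is also low in Sunraycer and Prupe.1G205600.v2.1 spans 0 to 2321 CPM over the other accessions.

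Members of the kind seen in Prupe.1G531600.v2.1 were a minority. The means of MN, Sunraycer and TN11 lay within 2-fold of each other in 12 of the 37 high and 12 of the 53 low genes. Of these, 7 high and 11 low genes also had no overlap between TN7 and any other library. At the other end, the other 3 means were over 10-fold apart, or included a mean of 0, in 10 high and 7 low genes. The accession nearest to TN7 was TN11 in 16, MN in 14 and Sunraycer in 7 of the high genes. It was MN in 29, Sunraycer in 12 and TN11 in 12 of the low genes. Sunraycer had the highest mean in 30 of the 53 low genes. The rule acts on these same means through their largest, their smallest and the floor of 1 CPM. Shares over all genes were not taken for these counts, so they only describe the members.

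The members also varied more between libraries of one accession than tested genes in general. In edgeR's model of the 19 libraries the median coefficient of biological variation, the spread beyond counting error within accessions, was 0.408 among the 36 tested high genes and 0.348 among the 53 low genes, against 0.21 over all 19360 tested genes. This spread is larger at low counts. It was also measured in the same libraries whose means chose the genes, so it only describes the members. Set against the model's trend for genes of the same abundance, 22 of the 36 high genes (61.1%) and 30 of the 53 low genes (56.6%) lay above it, where 26.5% of all tested genes did. The most uneven members in TN7 were low genes: Prupe.3G144000.v2.1 had 0.447, 0.788, 0.445 and 8.72 CPM in TN7 1, 2, 3 and 5, and Prupe.1G163700.v2.1 had 1 count in TN7 1 and none in the other 3 libraries.

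One library of TN7 bore on how many genes were low. Without TN7 5 the rule gave 142 low genes, of which 51 were among the 53, and 39 high genes, of which 34 were among the 37. In 89 of the 91 genes that were low only without it, TN7 5 was the highest TN7 library, which their selection nearly fixes. Sunraycer had the highest mean of the accessions in 88 of the 91, and the share over all genes was not taken. Nothing is read from either count. TN7 5 also lay nearest to Sunraycer among the TN7 libraries on the axis of spread given above. The part of that axis in these genes was not tested.

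Each member was then read out of a test over all genes, with edgeR's quasi-likelihood fit and Benjamini-Hochberg adjustment over the 19360 genes that passed the filter on low counts. A gene was called when its adjusted p was below 0.05 and its difference at least 2-fold. All 53 low genes and 36 of the 37 high genes were tested; Prupe.6G282000.v2.1 did not pass the filter. Nothing states whether libraries of an accession came from separate trees. The p-values therefore set each difference between accessions against the spread between these libraries, which may be technical. They do not reach beyond these libraries. RNA was taken from fruit tissue in bulk, so fewer cells of a type and less RNA per cell cannot be told apart.

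Against the accessions used in the rule, the calls are a description. Of the 36 high genes, 33 were called higher in TN7 than in MN (7.59% of all tested genes), 31 higher than in Sunraycer (6.45%) and 27 higher than in TN11 (1.55%). Of the 53 low genes, 39 were called lower in TN7 than in MN (2.73% of all tested genes), 52 lower than in Sunraycer (9.71%) and 39 lower than in TN11 (2.78%). In both directions together 10.3% of all tested genes were called against MN, 16.2% against Sunraycer and 4.34% against TN11. In all 3 comparisons 26 high genes were called higher (0.232% of all tested genes) and 33 low genes lower (0.372%). The high genes Prupe.1G358200.v2.1 and Prupe.8G095800.v2.1, singled out after their values were seen, were called in none. MN and TN7 libraries of the same number deviated together (correlations 0.419 to 0.486 over 3 pairs). Libraries of different numbers were not compared, so whether the number links them was not tested. With the number as a block 28 high genes were called higher in TN7 than in MN (5.66% of all tested genes in that fit) and 35 low genes lower (2.2%).

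The comparisons among MN, Sunraycer and TN11 hold no TN7 library, and they show whether the members differ between the other accessions as well. They are not free of the rule, which uses the largest of the 3 means and bounds TN11 against the nectarines for the high genes, and uses the smallest of the 3 means and a floor of 1 CPM for the low genes. The 3 comparisons share libraries with each other, so their values are given side by side. No comparison was called in 20 of the 36 high and 13 of the 53 low genes, where none was called in 65.8% of all tested genes. All 3 were called in 0 high and 5 low genes, against 2.86% of all tested genes. With both limits, 31.5% of the tested members and 15.0% of all tested genes were called for TN11 minus MN. These shares were 38.2% and 18.3% for TN11 minus Sunraycer, and 46.1% and 25.2% for MN minus Sunraycer. With adjusted p alone they were 38.2% and 33.4%, 47.2% and 43.0%, and 53.9% and 60.6%, in the same order. High and low members are pooled in these shares. The parts of the 2-fold limit and of the members' larger spread were not tested.

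Between the nectarines, MN and Sunraycer, 29 of the 53 low genes were called. Of these, 26 were lower in MN than in Sunraycer and 3 higher, 54.7% of the low genes together, where 25.2% of all tested genes were called (16.8% lower and 8.41% higher). The median log2 fold change of MN minus Sunraycer was −0.96 among the low genes and 0.04 over all tested genes. Of the 36 high genes 7 were lower and 5 higher in MN, 33.3% together, with a median of 0.09. The axis scores of the nectarines do not overlap, and with the score as a covariate, an alternative added after the data were seen, 13 of the 89 tested members were called in place of 41 (6 higher and 7 lower in MN), and 4.35% of all tested genes. An accession difference and a position on that axis cannot be told apart for this pair.

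Prupe.1G205600.v2.1 and Prupe.3G144000.v2.1 had the largest calls lower in MN. The level of Prupe.1G205600.v2.1 was 5.28 ± 9.42 CPM in MN and 1098 ± 704 CPM in Sunraycer (SD, n = 5 each), a log2 fold change of −7.86 (SE 1.35, edgeR adjusted p = 0.000331). Its MN mean rested on MN 5 at 22.0 CPM, and without that library the value was −10.13. Prupe.3G144000.v2.1 had 8.23 ± 14.0 CPM in MN and 805 ± 316 CPM in Sunraycer (SD, n = 5 each), with 33.0 CPM in MN 5. Its log2 fold change was −6.79 (SE 1.45, edgeR adjusted p = 0.00103), and −8.80 without MN 5. Both calls were lost with the axis score as a covariate, at −5.33 and −2.53. In both genes all 5 Sunraycer libraries lay above all 5 MN libraries.

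In the other direction, Prupe.3G010100.v2.1 and Prupe.5G020800.v2.1, both high in TN7, had no count in Sunraycer. Prupe.3G010100.v2.1 had 1.09 to 2.65 CPM in MN, 1.64 to 3.90 in TN11 and 5.59 to 10.3 in TN7, and was at least 53.3-fold higher in MN than in Sunraycer (edgeR adjusted p = 3.28e-06). Prupe.5G020800.v2.1 had no count in TN11 either, with 0.284 to 0.534 CPM in MN and 1.02 to 1.39 in TN7. It was at least 12.3-fold higher in MN than in Sunraycer (edgeR adjusted p = 4.81e-05). This gene therefore had counts in every library of MN and TN7, both stated Gg, and in none of Sunraycer and TN11. Libraries of an accession are not replicates of a genotype, and the share of all genes with this pattern was not taken. A link to the genotype was not tested. Prupe.6G019600.v2.1 was also higher in MN than in Sunraycer, with a log2 fold change of 2.91 (SE 0.278, edgeR adjusted p = 9.03e-07).

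Between TN11 and MN, 28 of the 89 tested members were called. Of the 53 low genes 15 were higher and 5 lower in TN11, 37.7% together, where 15.0% of all tested genes were called (11.1% higher and 3.88% lower). Of the 36 high genes 5 were higher and 3 lower, 22.2% together. Median log2 fold changes of TN11 minus MN were 0.46 among the low and 0.04 among the high genes, against 0.02 over all tested genes. Prupe.4G285500.v2.1 was higher in TN11 by 2.07 (SE 0.16, edgeR adjusted p = 2.35e-08), and Prupe.6G139800.v2.1 by 2.58 (SE 0.424, edgeR adjusted p = 3.00e-04).

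The largest calls between TN11 and MN included genes with few counts. Prupe.1G205600.v2.1 was higher in TN11, at 111 ± 81.6 CPM (SD, n = 5), with a log2 fold change of 4.43 (SE 1.16, edgeR adjusted p = 0.00887), and 6.70 without MN 5. The call was lost with the axis score as a covariate, at 3.22, and with the replicate number as a block, at 5.71. Prupe.4G146400.v2.1 had 4 counts over MN and 40 over TN11 (log2 3.11, SE 0.897, edgeR adjusted p = 0.0127), and this call was also lost with the block, at 2.58. Lower in TN11 were Prupe.5G020800.v2.1, at least 14.0-fold (edgeR adjusted p = 2.22e-05), and Prupe.7G109300.v2.1. The latter had 0.108 ± 0.0879 CPM in TN11 and 1.59 ± 0.383 in MN (SD, n = 5 each), a log2 fold change of −3.73 (SE 0.598, edgeR adjusted p = 0.000123), and −4.33 without TN11 4.

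Between TN11 and Sunraycer, 8 low genes were called higher and 18 lower in TN11, 49.1% together, where 18.3% of all tested genes were called (8.49% higher and 9.85% lower). Of the high genes 5 were higher and 3 lower, 22.2% together. Median log2 fold changes of TN11 minus Sunraycer were −0.42 among the low and 0.07 among the high genes, against 0.05 over all tested genes. When the axis score entered the model the split over all members turned from 13 higher and 21 lower to 16 higher and 9 lower. Of the 34 calls 19 were kept with the same sign, 15 were lost and 0 changed sign, and 6 were gained. Prupe.3G156600.v2.1, a low gene, had 1.43 to 3.19 CPM in TN11, 27.7 to 46.9 in Sunraycer and 16.7 to 20.7 in MN. It was lower in TN11 than in Sunraycer by a log2 fold change of −4.10 (SE 0.326, edgeR adjusted p = 3.57e-08), so the peaches were the low accessions, with TN7 at 0.0985 to 1.09 CPM.

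Prupe.3G144000.v2.1 was also lower in TN11 than in Sunraycer, with a log2 fold change of −5.28 (SE 1.35, edgeR adjusted p = 0.00521), and −6.05 without TN11 2. Higher in TN11 were Prupe.3G010100.v2.1, at least 81.8-fold (edgeR adjusted p = 4.32e-07), and Prupe.1G150700.v2.1, at least 4.98-fold (edgeR adjusted p = 0.000228), neither of which had a count in Sunraycer. Prupe.6G019600.v2.1 was higher in TN11 by 2.97 (SE 0.279, edgeR adjusted p = 2.98e-07), Prupe.6G139800.v2.1 by 2.76 (SE 0.43, edgeR adjusted p = 0.000189) and Prupe.4G285500.v2.1 by 1.01 (SE 0.155, edgeR adjusted p = 8.31e-05), all as log2 fold changes. The last value stood at the 2-fold limit, and it was below it, at 0.86 to 0.99, in 9 alternatives.

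**Figure D4:**
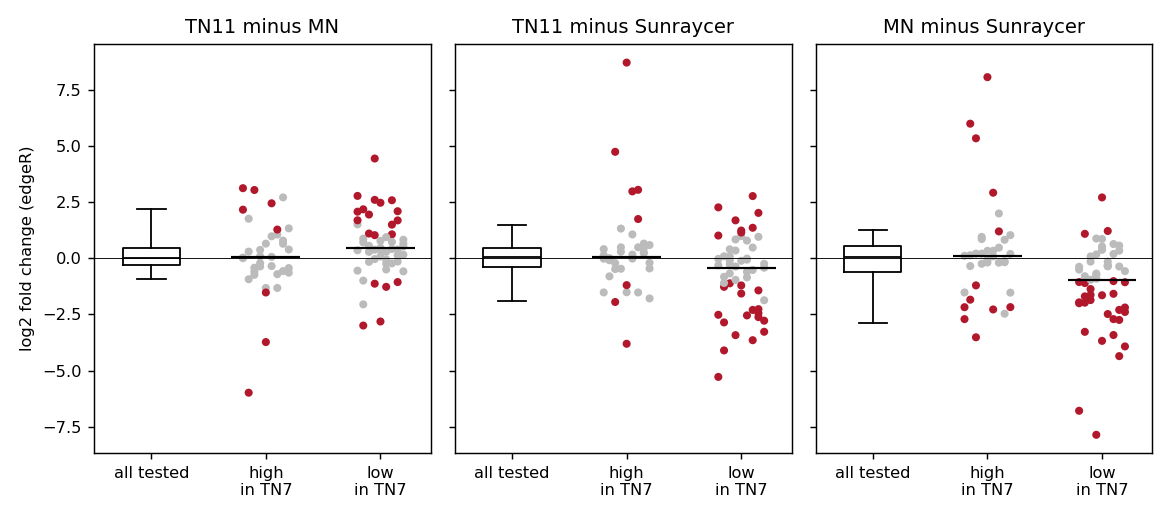
Log2 fold changes (edgeR) in the 3 comparisons without TN7 for all 19360 tested genes (box from the first to the third quartile, line at the median, whiskers at the 5th and 95th percentiles) and for each tested member (points; red where called, grey where not; bar at the median). The low genes have medians of 0.46, −0.42 and −0.96 from left to right; fitted values of genes without counts in one accession depend on the prior count of the model.

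Some members lay next to each other in the genome. In the IDs of this annotation the digit before G is the chromosome and the number after it rises along the chromosome, which gives the order of the genes without coordinates. Another member lay within 10 places of 19 of the 90 members (21.1%), while 6.02% of all genes in the table had a member within 10 places. Directly beside another member were 7 of the 90 (7.78%), against 0.668% of all genes. There were 11 such pairs within 10 places, 9 of genes in the same direction and 2 of a high with a low gene. How reads shared by near-identical neighbouring copies were divided is not given in the sources used here, so a level in such a pair is uncertain.

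The only run of 3 members was Prupe.1G531500.v2.1, Prupe.1G531600.v2.1 and Prupe.1G531700.v2.1, all low in TN7. In TN7 the mean of Prupe.1G531500.v2.1 was 0.869 ± 0.188 CPM (SD, n = 4), against means of 3.44 to 4.54 elsewhere. That of Prupe.1G531700.v2.1 was 0.291 ± 0.187 CPM (SD, n = 4), against means of 1.58 to 4.50. The genes on both sides of the run were not low in TN7: Prupe.1G531400.v2.1 stood at 11.4 ± 4.29 CPM (SD, n = 4) there against means of 11.0 to 16.9, and Prupe.1G531800.v2.1 at 20.1 ± 4.00 (SD, n = 4) against 14.1 to 21.2. The TN7 difference was thus seen in the 3 genes and not in either neighbour.

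A stretch of 18 genes on chromosome 1, from Prupe.1G182600.v2.1 to Prupe.1G184300.v2.1 and picked out after its values were seen, held differences in both directions. Prupe.1G182800.v2.1, high in TN7, stood directly beside Prupe.1G182900.v2.1, which was low. Prupe.1G184200.v2.1 was high as well. Prupe.1G183400.v2.1, which met the TN7 condition but not the one on TN11, had 1.66 to 2.43 CPM in TN7 and 0.13 or less in every other library. In 3 genes of the stretch all TN7 libraries were above all others and in 1 gene all were below. These are the genes just named, which were chosen for this difference. Among all genes with at least 1 CPM in an accession, 0.819% lay above and 0.472% below in this way. In 14 genes of the stretch the ranges overlapped. Some of these had hardly any counts, such as Prupe.1G184000.v2.1 with accession means of 0 to 0.0269 CPM. Among the 14, Prupe.1G182600.v2.1 had 237 CPM in TN7 and means of 209 to 254 CPM elsewhere. Prupe.1G183000.v2.1 and Prupe.1G183100.v2.1, the genes after Prupe.1G182900.v2.1, had TN7 means 1.84-fold and 2.21-fold below the smallest other mean, with overlap between libraries.

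On chromosome 6 the adjacent genes Prupe.6G019500.v2.1 and Prupe.6G019600.v2.1 were both high in TN7. The next gene, Prupe.6G019700.v2.1, stood at 149 ± 38.0 CPM (SD, n = 4) in TN7, 105 ± 18.7 in TN11, 66.6 ± 19.1 in MN and 31.8 ± 18.4 in Sunraycer (SD, n = 5 each), and so was highest in TN7 without reaching 2.5-fold. Across chromosomes the members were uneven. Chromosome 1 held 24 members (26.7%, against 21.9% of all genes), chromosome 6 held 17 (18.9% against 13.7%) and chromosome 4 held 14 (15.6% against 10.8%), of which 13 were low. Chromosome 2 held 3 (3.33% against 12.3%) and chromosome 5 held 4 (4.44% against 9.19%). No test of these shares was made.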

How the data were processed

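The authors deposited 1 table of whole-number counts per gene for 19 libraries (0 values were not whole, 0 columns were left unmatched), with no normalization. No column was found for replicate 4 of TN7, so it was not analysed here. Per the labels' protocols, extraction used the RNeasy Plant Mini Kit, and the library kit was TruSeq Stranded mRNA. The submitters' processing notes name, with no role, R 4.1.1, DESeq2, Bowtie2 2.5.1 and RSEM 1.2.31. Not given in the sources used here were the build, the strand setting and how reads were filtered.

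Groups follow the sample titles. CPM is count over column total. For tests, filterByExpr kept 19360 genes, counts were scaled by TMM and fitted with edgeR 4.0.16 (glmQLFit, glmQLFTest; R 4.3.3), with a mean for each accession and dispersions estimated from the 19 libraries jointly. Calls needed an adjusted p (Benjamini-Hochberg over all tested genes) below 0.05 and a 2-fold difference. The standard error is the log2 fold change over the square root of F. DESeq2 1.42.0 was an alternative. The fit was tested on simulated data. Same-numbered libraries all deviated together for MN and TN7, and not for any other pair of accessions. For TN7 with Sunraycer the correlations were −0.547, 0.367 and 0.536, and for TN7 with TN11 they ran from −0.607 to 0.271. Values as large as those of MN and TN7 thus arose in both signs. Pairs of libraries with different numbers were not correlated, so a link through the number was not tested. Library totals of 14890206 to 24474843 limit precision at low CPM.

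The members, lists and tests were chosen with earlier results of these data known. Genes are named by their ratio (with 0.1 CPM added), by level, by closeness to the limit, by spread in TN7, by largest change in each comparison without TN7 and by runs in gene order. As no annotation pairs the IDs with functions, about 2 genes each way are named per part of that rule, and the planned lists by function and cell type could not be formed.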

Additional observations from a re-analysis of the deposited data

Results flagged for a closer look

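In 134 sets of libraries of 1 accession, over the 37 genes checked, 20 values lay far from the rest of their accession. The limit flags about 1 set in 20 for normally distributed values. A set with counts in a single library is always flagged, as for Prupe.1G182800.v2.1 in MN and in Sunraycer. Some genes were also named for their spread in TN7, so the number flagged is not set against chance. Of these, 4 were in TN7. Prupe.3G144000.v2.1 stood at 8.72 CPM in TN7 5 (0.445 to 0.788 in the others), Prupe.8G256700.v2.1 at 14.5 in TN7 5 (2.72 to 4.53), Prupe.2G207600.v2.1 at 2.67 in TN7 5 (0.759 to 1.08) and Prupe.1G163700.v2.1 at 0.0447 in TN7 1, which is 1 count.

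In MN, Prupe.6G019500.v2.1 stood at 62.2 CPM in MN 1 (19.2 to 26.6 in the others) and Prupe.4G047800.v2.1 at 12.9 in MN 1 (2.27 to 3.69). Prupe.1G205600.v2.1 had 22.0 CPM (0 to 2.88 in the others) and Prupe.3G144000.v2.1 33.0 CPM (0.0905 to 5.81) in MN 5. Prupe.1G231300.v2.1 had 0.52 CPM and Prupe.1G182800.v2.1 0.0473 CPM in MN 4, while MN 3 had 1.90 CPM of Prupe.6G208100.v2.1 and 0.0452 CPM, 1 count, of Prupe.1G183400.v2.1.

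In Sunraycer, Prupe.1G205600.v2.1 stood at 2321 CPM in Sunraycer 4 (571 to 1029 in the others), Prupe.6G139800.v2.1 at 4.23 in Sunraycer 3 and Prupe.1G182800.v2.1 at 0.0409 in Sunraycer 2. Sunraycer 1 had 1.14 CPM of Prupe.1G358200.v2.1 (0.134 to 0.238 in the others) and 0.0543 CPM, 1 count, of Prupe.1G183400.v2.1. In TN11, Prupe.7G109300.v2.1 had 0.261 CPM in TN11 4, and TN11 3 had 6.05 CPM of Prupe.2G207600.v2.1 and 5.91 CPM of Prupe.6G208100.v2.1 (13.6 to 16.6 in the others).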

How the results depend on the processing

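The numbers of members depend on the limits of the rule. With a 2-fold limit there were 66 high and 88 low genes, with 4-fold 13 and 24, and with a minimum of 5 CPM 13 and 18. TMM scaling gave 35 high and 55 low genes, accession medians gave 31 and 66 (21 and 38 of them members), and dropping the TN11 condition, added after the data were seen, gave 46 high genes. Leaving out each library in turn gave 26 to 51 high genes (26 without TN7 2) and 44 to 142 low genes (142 without TN7 5). Without TN7 5 and Sunraycer 1 together there were 41 high and 143 low genes. The cause was not tested.

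The counts of members called between the other accessions were 28 (TN11 minus MN), 34 (TN11 minus Sunraycer) and 41 (MN minus Sunraycer). They ran over the left-out libraries from 24 to 30, 31 to 36 and 32 to 44. When the axis score entered the model, MN minus Sunraycer gave 13 (4.35% of all tested genes), and TN11 minus MN and TN11 minus Sunraycer gave 24 and 25 (12.8% and 11.7% of all tested genes). DESeq2's test, its size factors, no filter on low counts and adjusted p alone stayed within 1.5 times of each count, but adjusted p alone brought the share of all tested genes to 33.4%, 43.0% and 60.6%, beside 38.2%, 47.2% and 53.9% of the tested members. Same-numbered libraries of these 3 pairs did not all deviate together (correlations −0.38 to 0.375), and nothing stated links them beyond the number. Under a replicate block the counts were 20, 32 and 33, with 12.8%, 18.6% and 25.8% of all tested genes. Of 18 named comparisons none changed direction in 449 alternatives, and the call was lost in 14, of which 9 concern Prupe.4G285500.v2.1 between TN11 and Sunraycer.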

Other observations

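A further 9 genes were at least 2.5-fold above every other accession in TN7 and were set aside by the condition on TN11. In 6 of them the TN11 mean was 4.08 to 39.6 times the larger nectarine mean, and in Prupe.3G142600.v2.1 a single count in TN11 was the only one outside TN7. Prupe.6G208100.v2.1, the one with most reads, had 36.7, 61.0, 38.7 and 23.9 CPM in TN7 1, 2, 3 and 5, against 13.8 ± 4.57 CPM in TN11, 1.13 ± 0.439 in MN and 0.552 ± 0.209 in Sunraycer (SD, n = 5 each). Both peaches were thus above both nectarines, and TN7 above TN11, in every library.

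The other 2 had no count outside TN7, so that a TN11 mean of 0 could not lie below the bound. Prupe.3G055500.v2.1 had 34.3, 26.3, 35.1 and 23.9 CPM in TN7 1, 2, 3 and 5 and none in the other 15 libraries, at least 948-fold above Sunraycer, 1054-fold above MN and 1077-fold above TN11. Prupe.1G241000.v2.1 stood at 1.46 ± 0.818 CPM (SD, n = 4) in TN7, again with all others at 0. Each of the 37 high genes had a count in at least 1 library outside TN7.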
